A study of Mus musculus with 18 samples.

Results

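Amino acid transporters were followed across mouse leukemia cells and normal marrow progenitors. The members were the genes of 7 carrier families, found by symbol as Slc1a, Slc3a, Slc6a, Slc7a, Slc36a, Slc38a or Slc43a followed by a number and having an array probe set of their own. There were 61 such genes of 22180 genes with a probe set of their own, and 51 of them were among the 16912 genes bright enough to test. For a gene with several probe sets, the probe set with the highest mean was used. The family names are wider than the label: Slc6a2, Slc6a3 and Slc6a4 carry monoamines, Slc6a8 carries creatine, Slc6a6 carries taurine and Slc43a3 carries purine nucleobases. Slc36a1os, Slc6a19os and Slc7a6os share a name stem but lie on the opposite strand and are no transporters, so these 3 genes were set aside.

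The leukemia cells (AML) were GFP-positive cells driven by MLL-AF9, a fusion oncogene, and were sorted from leukemic mice. The normal cells (LSK) were sorted from marrow as cells without lineage markers but with Kit and Sca1, a fraction that holds the blood stem and progenitor cells. According to the labels both derive from 4F mice, which carry doxycycline (Dox) inducible transgenes for Oct4, Sox2, Klf4 and c-Myc, so the control cells carried the transgenes too. Each cell type was kept in culture for 24 h as Control, with Dox to induce the 4 factors, or with a Compound mix. The mix held VPA, which blocks histone deacetylases, CHIR, which blocks the kinase GSK3, 616452, which blocks a receptor for TGF-beta, and TCP, which blocks the histone demethylase LSD1. No group was given Dox without the transgenes, and no single compound was tested. The 6 groups had 3 arrays each, 18 in all, and 17 were used, which left LSK Compound with 2. The labels call them biological repeats without saying whether animals or cultures were separate, and a p-value therefore speaks only of the spread among these arrays, which may be technical.

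Amino acids cross the cell membrane through carriers that exchange them or couple them to sodium or protons. Several carriers of the Slc7 family are light chains that reach the surface only when bound to a heavy chain, Slc3a2 (4F2hc, CD98) or Slc3a1. The leucine carrier Slc7a5 (LAT1) exports glutamine as it imports large neutral amino acids, and the cystine carrier Slc7a11 (xCT) exports glutamate as it brings in cystine for glutathione synthesis. Amino acid shortage raises translation of the transcription factor ATF4, which acts on many of these genes with C/EBP proteins through C/EBP-ATF elements. Growing blood and leukemia cells are known to need large amounts of glutamine, leucine and arginine.

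LSK Compound replicate 1 correlated with the other 17 arrays at 0.638 to 0.672, against 0.904 or more between any other arrays, and was left out. The Dox-induced gene Klf4 rose by 5.87 in AML cells, from 3.27 to 9.14, and read 3.83 in LSK Control and 8.21 in LSK Dox. Pou5f1 (Oct4) read 2.91 and 3.58 in AML Control and Dox, Sox2 read 2.72 and 4.03, and Myc fell from 8.67 to 4.57. Whether these probe sets read the transgenes was not tested. Defining markers held in part: Kit read 6.22 in AML Control and 3.44 in AML Dox, and Slamf1, a stem cell marker, lay at background in the control LSK arrays. With the Compound mix Kit read 7.66 to 7.83 in AML cells and 8.57 in LSK cells. It read 7.66 to 7.76 in LSK Control and 6.89 to 7.02 in LSK Dox. Kit is 1 of 8 listed LSK markers, of which 7 were matched. Their mean went the other way under Dox, at 6.19 to 6.26 on LSK Control and 6.57 to 6.6 on LSK Dox arrays. On LSK Compound arrays it was 6.73 to 6.92. Hoxa9 and Meis1, also listed as AML markers, were higher in AML Dox than in AML Control. LSK Compound replicates 2 and 3 read 7.35 and 7.32 for Xist, against 9.28 to 9.77 on the other 6 LSK arrays, and 5.47 and 5.20 for the Y-linked gene Eif2s3y, against 2.04 at most. Their part in the LSK Compound results below was not tested.

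Promoters of 44 of the 61 genes were found among RefSeq's (build GRCm38.p6), with 63 starts, each from 250 bases before to 50 bases after the start. Sequences are shown for 4 genes that the results turn on and that hold a searched motif: the cystine carrier Slc7a11 and the lysine and arginine carrier Slc7a7, whose rises with the Compound mix were among the largest in both cell types, and the neutral amino acid carriers Slc1a4 and Slc38a2, which fell in AML cells under Dox. They lie on the minus strand at chr3:50443564-50443863, chr14:54417895-54418194 (the most distal of 5 starts listed), chr11:20332664-20332963 and chr15:96699679-96699978, in that order. Capitals mark a C/EBP-ATF element (TGATGNAA, either strand), or in Slc38a2 an antioxidant element (TGACNNNGC).
Slc7a11: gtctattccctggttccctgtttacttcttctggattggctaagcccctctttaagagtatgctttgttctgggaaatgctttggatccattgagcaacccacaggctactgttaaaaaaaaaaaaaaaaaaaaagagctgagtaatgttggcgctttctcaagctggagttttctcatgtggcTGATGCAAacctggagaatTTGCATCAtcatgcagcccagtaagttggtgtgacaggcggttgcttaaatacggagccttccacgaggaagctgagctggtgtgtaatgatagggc
Slc7a7: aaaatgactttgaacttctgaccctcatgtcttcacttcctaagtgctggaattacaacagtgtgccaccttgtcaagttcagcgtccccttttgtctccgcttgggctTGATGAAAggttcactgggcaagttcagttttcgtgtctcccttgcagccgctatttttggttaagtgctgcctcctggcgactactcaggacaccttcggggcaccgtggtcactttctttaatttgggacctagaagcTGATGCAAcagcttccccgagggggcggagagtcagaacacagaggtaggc
Slc1a4: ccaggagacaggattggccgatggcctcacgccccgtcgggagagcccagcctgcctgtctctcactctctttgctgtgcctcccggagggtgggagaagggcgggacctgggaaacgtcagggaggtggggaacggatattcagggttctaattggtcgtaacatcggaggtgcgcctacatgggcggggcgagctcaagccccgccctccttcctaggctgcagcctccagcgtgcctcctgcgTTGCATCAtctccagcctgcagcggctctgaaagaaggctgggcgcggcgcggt
Slc38a2: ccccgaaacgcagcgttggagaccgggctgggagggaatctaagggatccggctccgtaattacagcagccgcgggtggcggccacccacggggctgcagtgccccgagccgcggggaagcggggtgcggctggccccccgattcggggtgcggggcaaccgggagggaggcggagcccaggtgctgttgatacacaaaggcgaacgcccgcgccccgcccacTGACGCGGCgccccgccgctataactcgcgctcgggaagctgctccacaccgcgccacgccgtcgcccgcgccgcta

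The C/EBP-ATF letters lie at -66 and -47 from the Slc7a11 start, at -141 and -1 from the Slc7a7 start and at -4 from the Slc1a4 start. They were in 5 of the 63 member promoters (7.94%), of 4 genes, and in 3.97% of all 32851 promoters. The fourth gene was Slc6a21. Overlapping promoters of Slc7a7 share an element, at -1 from the start shown and at -243 from another start, so its site entered this count more than once. The remaining Slc7a7 starts held none. The antioxidant letters, at -27 in Slc38a2 and at -11 in 1 promoter of the arginine carrier Slc7a1, were in 14.3% of member promoters, of 8 genes, and 12.4% of all. The E-box CACGTG, a site for Myc family factors, was in 14.3% of member promoters and 7.15% of all. It was in the promoters of 9 genes: Slc1a6, Slc1a7, Slc36a1, Slc38a5, Slc38a7, Slc43a1, Slc6a3, Slc6a16 and Slc7a14. These are matches of letters, and binding was not measured.

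Values are log2 expression after RMA, so a difference of 1 is a 2-fold change. The level below which 40% of probe sets of an array lay, 2.32 to 2.41, served as the filter for dim genes. Of the 61 members, 24 reached a group mean of 4 or more in some group and the other 37 stayed at 3.71 or less, a split chosen after the values were seen. The 10 members that were not tested, Slc1a2, Slc38a3, Slc38a4, Slc38a11, Slc6a4, Slc6a14, Slc6a16, Slc7a9, Slc7a12 and Slc7a13, read between 1.61 and 2.45. Slc6a15 exceeded its filter level on 8 LSK arrays and 1 AML array, and Slc1a3 and Slc36a3 on AML Control and AML Compound arrays alone. Passing only where a gene is high favours a difference without forcing one, so the counts below are descriptions.

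Dox in AML cells gave the broadest fall among the transporters. It lowered 18 of 51 tested members (35.3%) and raised 6 (11.8%; limma, adjusted p under 0.05), where 24.7% of all genes tested were lower and 22.3% higher. Of the 18, 12 fell at least 2-fold. The share of all genes past 2-fold was not computed, here or for LSK Dox below. Among the 24 brighter members 17 were lower and 4 higher, with a median change of -0.97. The share of all genes at that brightness was not computed, so the shares above are no like base for this count. With the filter at the 60th percentile, 7728 of 11872 genes were called in either direction. Over all 51 the median was -0.09, and over all genes -0.01. The Compound mix in AML cells raised 9 members, 17.6% against 12.3% of all genes, and lowered 6, 11.8% against 18.5%.

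In LSK cells, Dox raised 3 members, 5.88% against 8.87% of all genes, and lowered 7, 13.7% against 9.43%, none of them by 2-fold. The Compound mix in LSK cells raised 13 members, 25.5% against 13.9% of all genes, and lowered 10, 19.6% against 19.3%. AML Control was higher than LSK Control for 11 members, 21.6% against 14.7%, and lower for 3, 5.88% against 13.6%. The Dox response differed between AML and LSK cells for 16 members, 14 of them more negative in AML cells (27.5% against 20.7% of all genes) and 2 more positive (3.92% against 18%). The Compound response differed for 14, 7 each way (13.7%, against 8.37% of all genes more positive in AML cells and 8.24% more negative). AML Dox was below AML Compound for 20 members (39.2% against 23.8% of all genes) and above it for 3 (5.88% against 22.4%). The Dox and Compound comparisons of a cell type share their control arrays.

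One array weighs on these counts. With LSK Compound replicate 1 included, the members called in the 8 comparisons, in the same order, fell from 24 to 12, 15 to 3, 10 to 2, 23 to 13, 14 to 5, 16 to 5, 14 to 1 and 23 to 11. The LSK Dox count was 6 without LSK Control replicate 2 or LSK Dox replicate 1 and 5 without LSK Dox replicate 3, and the count for the difference in Compound response was 9 without LSK Compound replicate 3. The change in LSK Compound moved with that array for the Slc7 carriers that rose most: Slc7a11 from 3.74 to 2.22 (adjusted p = 0.0715), Slc7a7 from 3.82 to 2.42 (adjusted p = 0.0399) and Slc7a2 from 4.39 to 3.10 (adjusted p = 0.00631). It deepened the falls of Slc7a5 from -1.23 to -2.28, Slc1a5 from -0.79 to -1.85, Slc7a1 from -0.58 to -1.39 and Slc38a2 from -0.66 to -2.25, and took Slc38a7 from 1.09 to 0.43 (adjusted p = 0.388). In AML cells, whose arrays it does not touch, it widened the shared spread, and the Compound rises of Slc7a7, Slc7a8 and Slc7a11 then missed the threshold (adjusted p = 0.0606, 0.0526 and 0.101), as did the Dox falls of Slc38a1 and Slc38a2 (adjusted p = 0.0611 and 0.265).

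**Figure D1:**
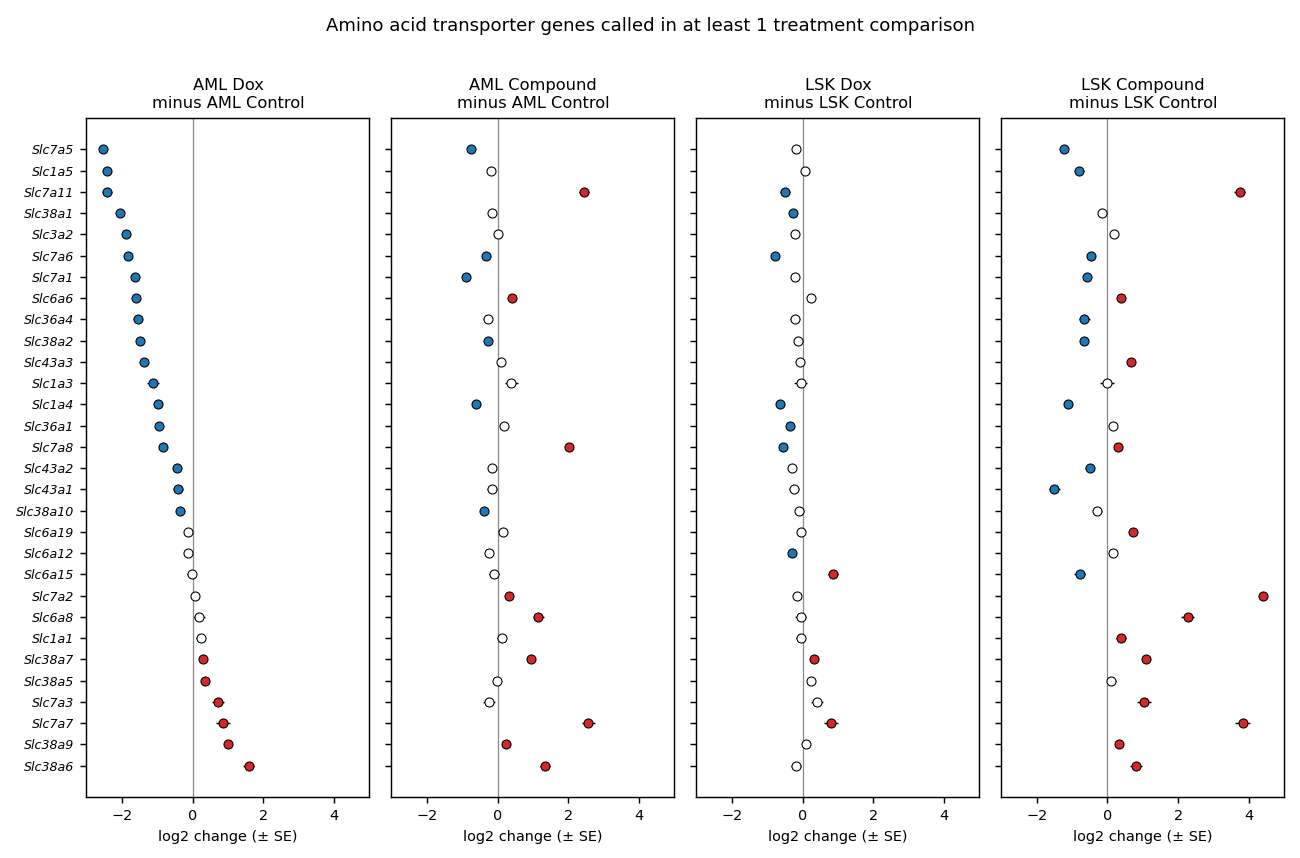
Log2 change (x axis, ± SE of the limma fit) of the 30 members called in at least 1 treatment comparison, a panel for each treatment against its control, ordered by the change in AML Dox. Red points are higher and blue points lower at an adjusted p under 0.05, and white points did not pass. The share of all genes called in at least 1 of these comparisons was not computed. Most points lie left of 0 in AML Dox, few leave 0 in LSK Dox, and Slc7a2, Slc7a7 and Slc7a11 lie above 3.5 in LSK Compound.

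The heavy chain Slc3a2 and its leucine carrier Slc7a5 both fell in AML Dox. Slc3a2 read 9.18, 9.13 and 9.15 in AML Control and 7.28, 7.16 and 7.33 in AML Dox and fell by 1.89 ± 0.08 (SE, adjusted p = 2.73e-12). Slc7a5 read 9.20, 9.29 and 9.20 in AML Control and 6.74, 6.77 and 6.56 in AML Dox and fell by 2.54 ± 0.09 (5.82-fold, adjusted p = 2.13e-13). For both genes every Dox array lay below every control array.

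In LSK cells Dox left both near their controls. Slc7a5 read 8.81, 8.98 and 8.99 in LSK Control and 8.72, 8.83 and 8.69 in LSK Dox, a change of -0.18 (adjusted p = 0.207), and Slc3a2 changed by -0.22 (adjusted p = 0.0794). The Dox response of Slc7a5 was more negative in AML cells by 2.36 log2 units and that of Slc3a2 by 1.68 (adjusted p = 1.84e-10 and 3.75e-09). With the Compound mix Slc7a5 fell by 0.76 in AML cells, to 8.38, 8.46 and 8.58, and by 1.23 in LSK cells, to 7.71 and 7.67 (adjusted p = 4.98e-06 and 3.12e-08). Slc3a2 read 9.18, 9.19 and 9.09 in AML Compound, among its control values (adjusted p = 0.998), and 9.01 and 8.99 in LSK Compound, a change of 0.18 (adjusted p = 0.162). The other heavy chain, Slc3a1, was called in no treatment comparison.

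The other light chains split by treatment. The lysine and arginine exchanger Slc7a6 (y+LAT2) fell in AML Dox by 1.84 ± 0.10 (6.72, 6.74 and 6.87 against 4.83, 4.84 and 5.13) and in LSK Dox by 0.77 ± 0.10 (6.94, 7.0 and 6.93 against 6.26, 6.15 and 6.14). Its adjusted p values were 7.35e-11 and 3.39e-05, and the arrays did not overlap in either cell type. It was lower with the Compound mix too, by 0.32 in AML cells and 0.46 in LSK cells (adjusted p = 0.0235 and 0.00442). The AML call was lost without AML Control replicate 3, AML Compound replicate 2 or AML Compound replicate 3. Its opposite-strand neighbour Slc7a6os fell in AML Dox by 0.93 (adjusted p = 1.59e-07), and whether the probe sets tell the strands apart was not tested.

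Slc7a7 (y+LAT1), a close relative of Slc7a6 that is known from macrophages and epithelia, went the other way in all 4 comparisons. It read 4.85, 4.66 and 4.73 in AML Control, 6.0, 5.33 and 5.51 in AML Dox and 7.65, 7.26 and 7.05 in AML Compound. In LSK cells it read 4.22, 4.14 and 4.86 in Control, 5.23, 5.24 and 5.17 in Dox and 8.10 and 8.35 in Compound. Each treated group lay above its controls, most clearly with the Compound mix. The rises with the Compound mix were 2.57 ± 0.19 in AML cells and 3.82 ± 0.21 in LSK cells (adjusted p = 2.07e-08 and 2.28e-10), and those with Dox were 0.86 and 0.80 (adjusted p = 9.96e-04 and 0.00667). The rise with the Compound mix was smaller in AML cells by 1.25 (adjusted p = 0.005).

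Slc7a8 (LAT2), a carrier of small and large neutral amino acids, started apart in the cell types: 5.65, 5.47 and 5.55 in AML Control and 7.33, 7.16 and 7.36 in LSK Control. AML Control was lower by 1.73 ± 0.10 (adjusted p = 5.13e-10). With the Compound mix it reached 7.82, 7.44 and 7.50 in AML cells, a rise by 2.03 ± 0.10, and 7.54 and 7.62 in LSK cells, a rise by 0.30 ± 0.11 (adjusted p = 9.37e-11 and 0.0497). The AML Compound arrays spanned the levels of the LSK Compound arrays, and AML Dox lay 2.85 below AML Compound. Dox lowered it in AML cells by 0.82 and in LSK cells by 0.55 (adjusted p = 1.60e-06 and 7.83e-04).

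Slc7a11, the cystine carrier, moved in opposite directions with the treatments. It read 4.92, 4.84 and 4.55 in AML Control, 2.35, 2.32 and 2.41 in AML Dox and 7.32, 7.37 and 6.95 in AML Compound. In LSK cells it read 4.41, 3.97 and 4.22 in Control, 3.59, 3.89 and 3.60 in Dox, and 8.03 and 7.85 in Compound. AML Dox took it to the filter level on all 3 arrays, and no arrays of different treatments overlapped within a cell type. The fall in AML Dox was 2.41 ± 0.14 (adjusted p = 1.06e-10), or 2.37 with dim values raised to the filter level. The rises with the Compound mix were 2.45 ± 0.14 in AML cells and 3.74 ± 0.16 in LSK cells, 5.45-fold and 13.4-fold (adjusted p = 6.49e-10 and 5.03e-12). AML Dox lay 4.85 below AML Compound, the largest difference between these groups among the tested members. The fall in LSK Dox, by 0.51 (adjusted p = 0.0167), was lost when LSK Control replicate 1 or 3 or LSK Dox replicate 1 or 3 was left out.

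Slc7a11 has a second, dimmer probe set. It rose with the Compound mix as well, by 0.82 in AML and 2.0 in LSK cells, but its group means in AML Control, LSK Control and both Dox groups, 1.91 to 2.25, lay below the filter level, and it changed by -0.30 in AML Dox (adjusted p = 0.199).

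**Figure D2:**
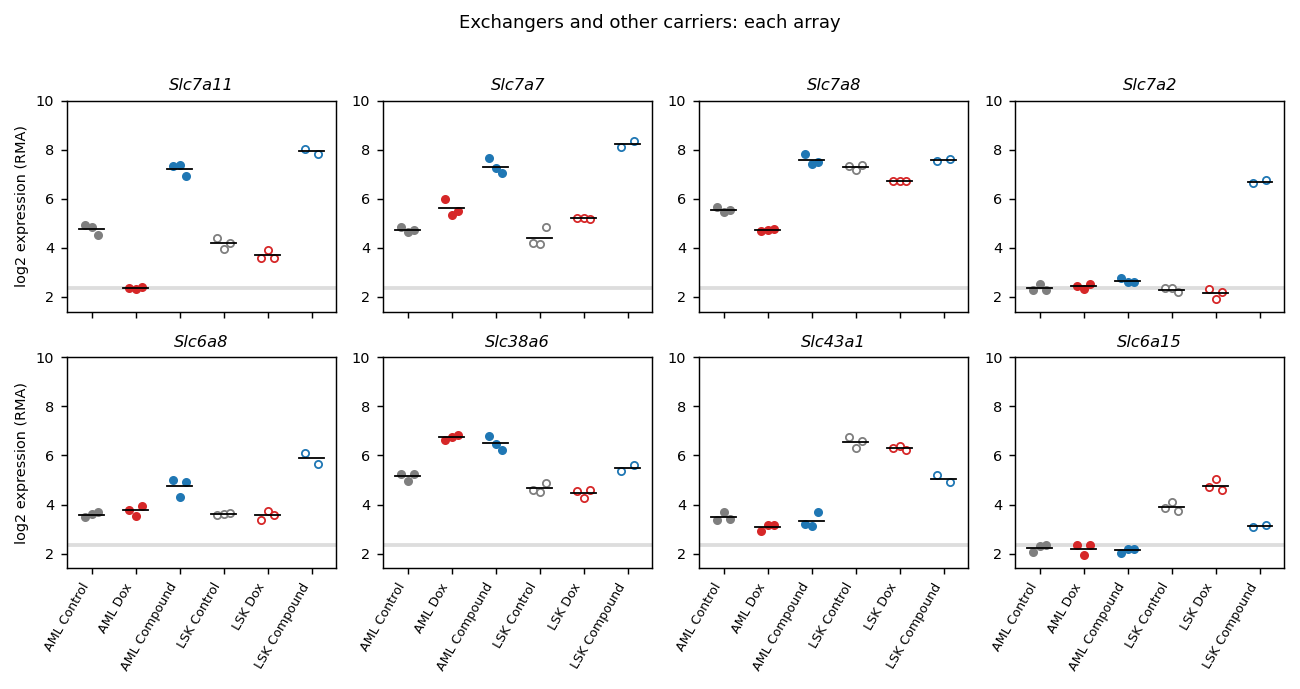
Log2 expression of 8 members on each array (y axis, RMA), by group (x axis), with filled points for AML, open points for LSK arrays and bars for group means; grey is Control, red Dox, blue Compound, and the grey band is the filter level. Slc7a11 drops to the band in AML Dox and exceeds 6.9 in both Compound groups, and Slc7a2 leaves the band clearly in LSK Compound alone.

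Among the cationic amino acid carriers, Slc7a1 (CAT1), the broad arginine and lysine importer, fell in AML Dox by 1.63 ± 0.10, from 7.80, 7.84 and 7.80 to 6.26, 6.19 and 6.10 (adjusted p = 2.94e-10). It fell with the Compound mix by 0.90 in AML cells (6.92, 6.91 and 6.91) and by 0.58 in LSK cells (6.40 and 6.85). No array of these treated groups reached its controls. LSK Dox read 7.09, 6.91 and 6.93 against 7.24, 7.16 and 7.20, a change of -0.22 that missed the threshold (adjusted p = 0.150).

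Slc7a2 (CAT2), an arginine carrier known to supply nitric oxide synthase in macrophages, had the largest rise of all tested members. It read 2.34, 2.35 and 2.21 in LSK Control, 2.33, 1.90 and 2.20 in LSK Dox, and 6.63 and 6.76 in LSK Compound. It rose by 4.39 ± 0.13 (adjusted p = 5.92e-14). The control values lay at background, and the rise was at least 4.35, its value with dim values raised to the filter level. In AML cells it read 2.27, 2.51 and 2.28 in Control and 2.79, 2.60 and 2.62 in Compound, a rise by 0.32 (adjusted p = 0.0440). The Compound response was smaller in AML cells by 4.08 ± 0.17 (adjusted p = 2.88e-11). Nos2, the inducible nitric oxide synthase, rose by 2.85 in LSK Compound (adjusted p = 8.22e-12), and its Compound response too was smaller in AML cells, by 2.65. Nos2 read 2.31, 2.50 and 2.36 in LSK Control, near the filter level. Arg2, another enzyme of arginine, read 2.33, 2.17 and 2.60 in LSK Control and 5.09 and 4.69 in LSK Compound. A link of either enzyme to Slc7a2 was not tested. The third cationic carrier, Slc7a3 (CAT3), rose by 0.72 in AML Dox and by 1.02 in LSK Compound, from dim levels of 2.47 to 2.85 in the controls (adjusted p = 0.0020 and 4.36e-04). AML Dox lay 0.96 above AML Compound for it (adjusted p = 1.52e-04).

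Of the Slc1 family, the glutamine carrier Slc1a5 (ASCT2) fell in AML Dox by 2.43 ± 0.11, or 5.39-fold, from 8.11, 8.27 and 8.28 to 5.52, 6.05 and 5.79 (adjusted p = 7.69e-12). In LSK Dox it read 8.07, 8.07 and 7.97 against 7.89, 7.90 and 8.10 in LSK Control, an overlap, with a change of 0.07 (adjusted p = 0.745). The Dox response was more negative in AML cells by 2.50 (adjusted p = 1.66e-09). The Compound mix lowered it in LSK cells by 0.79, to 7.12 and 7.22 (adjusted p = 9.38e-05). In AML Compound it read 8.07, 7.95 and 8.06, a change of -0.19 (adjusted p = 0.243), and the difference between the cell types was 0.60 (adjusted p = 0.0217). AML Dox lay 2.24 below AML Compound (adjusted p = 2.73e-11).

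Slc1a4 (ASCT1), a serine and alanine carrier, was lower in every treated group. It fell by 0.99 in AML Dox and 0.61 in AML Compound, from 5.70, 5.88 and 5.69 to 4.63, 4.83 and 4.86 and to 5.25, 5.15 and 5.05. In LSK cells it fell by 0.64 with Dox and 1.11 with the Compound mix, from 5.25, 5.23 and 5.11 to 4.53, 4.59 and 4.55 and to 4.24 and 3.93. The adjusted p values lay between 1.95e-07 and 1.98e-04, and no treated array reached its controls. The glutamate carrier Slc1a3 (GLAST) read 2.99, 2.73 and 3.62 in AML Control and 2.0, 1.87 and 2.12 in AML Dox, under the filter level. It was under that level on all LSK arrays used. The gap between AML Control and LSK Control was 1.18, or 0.77 with dim values raised to that level, and it is a description, since Slc1a3 entered the fit only through AML arrays.

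The Slc38 carriers, which couple small neutral amino acids to sodium, held falls and rises. The surface carriers Slc38a1 (SNAT1) and Slc38a2 (SNAT2) fell in AML Dox, by 2.04 ± 0.08 and 1.48 ± 0.08 (adjusted p = 6.81e-13 and 8.48e-11). Slc38a1 read 9.01, 9.02 and 9.03 in AML Control and 6.89, 6.93 and 7.12 in AML Dox. Slc38a2 read 8.91, 8.85 and 8.89 in AML Control and 7.42, 7.32 and 7.46 in AML Dox. No Dox array came near its controls for either gene.

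Their LSK Dox values were close to control: Slc38a1 was lower by 0.27 (adjusted p = 0.0260), a call lost without LSK Control replicate 2 or 3 or LSK Dox replicate 1 or 3, and Slc38a2 changed by -0.14 (adjusted p = 0.296). With the Compound mix Slc38a2 fell in LSK cells by 0.66, from 8.42, 8.35 and 8.54 to 7.78 and 7.77 (adjusted p = 2.57e-05). In AML Compound it fell by 0.27 (adjusted p = 0.0210), a call lost without AML Control replicate 1 or 3 or AML Compound replicate 3. Slc38a1 read 8.86, 8.86 and 8.84 in AML Compound and 8.82 and 8.81 in LSK Compound, changes of -0.17 and -0.16 that missed the threshold (adjusted p = 0.127 and 0.187).

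Smaller changes were seen in 2 other Slc38 members. Slc38a10 was lower in AML Compound by 0.39 (adjusted p = 0.0154), a call lost without AML Control replicate 1 or AML Compound replicate 2. The dim member Slc38a5 (SNAT5), at 2.35 to 2.63 in AML Control and 2.67 to 2.99 in AML Dox, was higher in AML Dox by 0.35 than in AML Control and by 0.36 than in AML Compound (adjusted p = 0.00862 and 0.00777). Both calls of Slc38a5 were lost without AML Dox replicate 2.

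Of the Slc38 members known from lysosomes, both of those described here rose. Slc38a9, the lysosomal arginine sensor of mTORC1, rose in AML Dox by 0.99 ± 0.08, from 5.96, 5.97 and 5.96 to 6.95, 6.88 and 7.03 (adjusted p = 1.77e-08). LSK Dox changed it by 0.09 (adjusted p = 0.529), and the Dox responses differed by 0.90 (adjusted p = 8.46e-06). AML Dox lay 0.76 above AML Compound (adjusted p = 6.11e-07). Slc38a7 (SNAT7), a lysosomal glutamine exporter, rose with the Compound mix by 0.95 in AML cells, to 6.74, 6.50 and 6.51 from 5.59, 5.72 and 5.59, and by 1.09 in LSK cells, to 6.38 and 6.43 from 5.47, 5.11 and 5.37. Adjusted p values were 2.17e-06 and 9.48e-07. Its rises with Dox were 0.30 in AML and 0.33 in LSK cells, and the LSK call was lost without any 1 of LSK Control replicates 2 and 3 and the 3 LSK Dox arrays.

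Slc38a6, a family member with a less settled role, had the largest rise in AML Dox. It read 5.25, 4.98 and 5.24 in AML Control and 6.63, 6.75 and 6.83 in AML Dox, a rise by 1.58 ± 0.14 (adjusted p = 4.52e-08). It read 4.61, 4.51 and 4.87 in LSK Control and 4.55, 4.27 and 4.61 in LSK Dox, which overlapped, so the Dox responses differed by 1.77 (adjusted p = 1.75e-06). The Compound mix raised it in both cell types, by 1.35 in AML and 0.81 in LSK cells (adjusted p = 1.6e-06 and 7.05e-04).

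**Figure D3:**
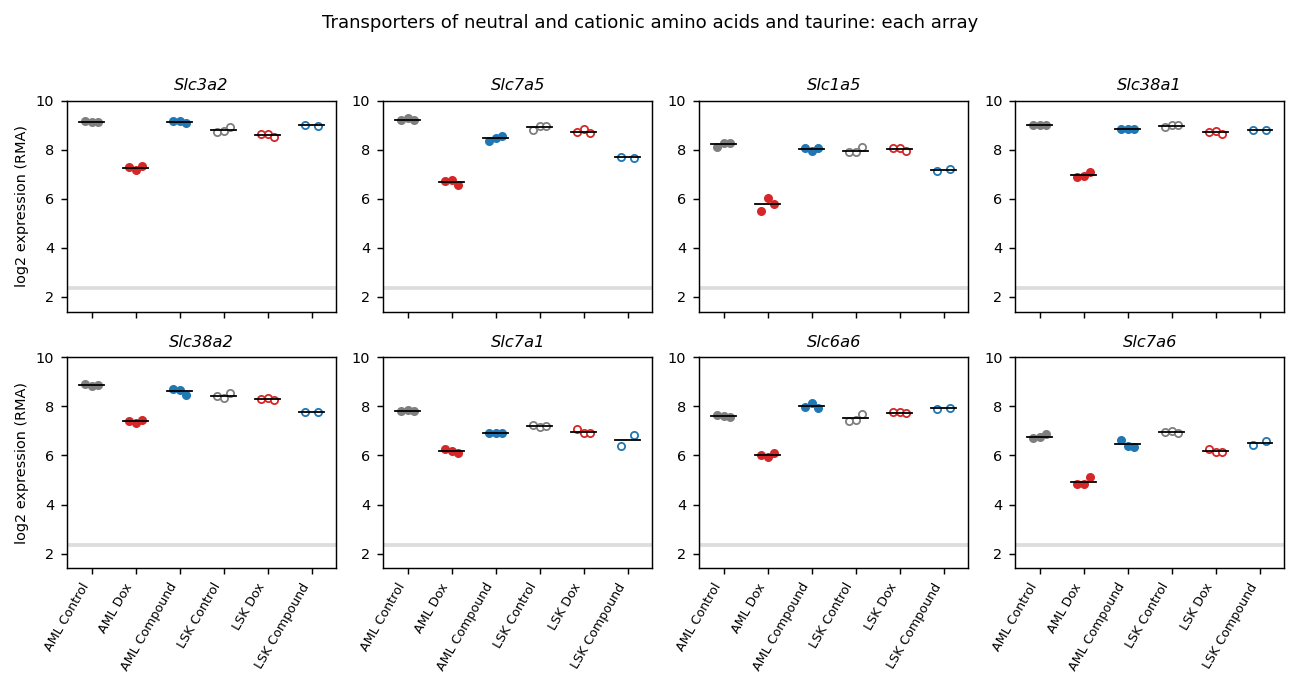
Log2 expression of 8 members on each array (y axis, RMA), by group (x axis); filled points are AML and open points LSK arrays, bars are group means, grey is Control, red Dox, blue Compound, and the grey band is the filter level. The 3 AML Dox arrays lie below those of every other group in each panel.

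The proton-coupled carrier Slc36a1 (PAT1), found on lysosomes, fell in AML Dox by 0.96, from 6.68, 6.90 and 6.84 to 5.78, 5.84 and 5.91 (adjusted p = 2.38e-07). It fell by 0.36 in LSK Dox (adjusted p = 0.0180), a call lost without LSK Control replicate 1 or 2 or LSK Dox replicate 3. AML Control exceeded LSK Control by 0.89 (adjusted p = 2.14e-06).

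The probe sets of Slc36a4 (PAT4) disagreed. The brighter fell by 1.55 in AML Dox, from a mean of 9.61 to 8.05 (adjusted p = 1.90e-08). The other rose from 5.78 to 7.12, by 1.34 (adjusted p = 7.88e-07). Slc36a4 thus has no settled direction, although the counts above hold it as lower in AML Dox, in LSK Compound, in the difference between the Dox responses (-1.34) and in AML Dox against AML Compound (-1.27). In the last 2 of these the other probe set differed by 1.16 and 1.0.

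**Figure D4:**
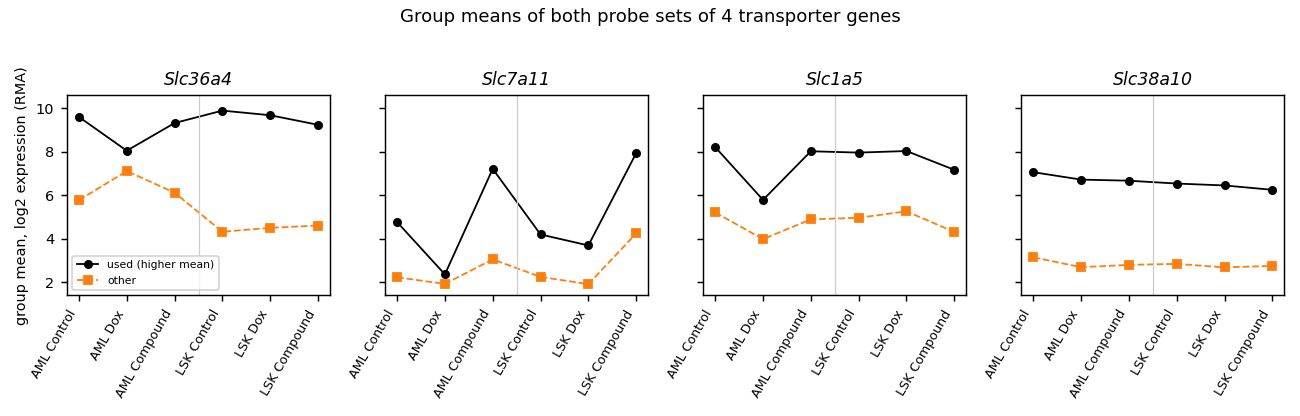
Group means (y axis, log2 expression, RMA) of the used probe set (black) and the other probe set (orange) of the 4 members with a second probe set, by group (x axis). The lines of Slc36a4 move in opposite directions in AML Dox, while both lines of Slc1a5 drop there.

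All 3 Slc43 members were lower in AML Dox, where 24.7% of all genes tested were lower. The nucleobase carrier Slc43a3 fell by 1.37 ± 0.07, from 8.80, 8.81 and 8.85 to 7.46, 7.48 and 7.42 (adjusted p = 4.15e-11), and Slc43a1 (LAT3) and Slc43a2 (LAT4), carriers of leucine and other large neutral amino acids, by 0.41 and 0.45. Slc43a1 marked the difference between the cell types: 3.38, 3.68 and 3.42 in AML Control against 6.74, 6.31 and 6.61 in LSK Control. This gap of -3.06 ± 0.15 (adjusted p = 5.02e-11) was the largest among the tested members. In LSK Compound it fell by 1.50, to 5.19 and 4.92 (adjusted p = 1.44e-06), while AML Compound changed by -0.15 (adjusted p = 0.516), a difference in response of 1.35 (adjusted p = 2.92e-04). From the AML Control values a fall by 1.50 would have passed below the filter level, so this difference is limited by signal. Slc43a3 rose in LSK Compound by 0.65 (adjusted p = 6.25e-06).

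Of the Slc6 family, 16 of 19 were tested. The taurine carrier Slc6a6 read 7.65, 7.63 and 7.58 in AML Control and 6.03, 5.92 and 6.08 in AML Dox and fell by 1.60 ± 0.09 (adjusted p = 7.14e-11). In LSK Dox it changed by 0.23 (adjusted p = 0.0923), and the responses differed by 1.83 (adjusted p = 3.75e-09). It rose by 0.40 with the Compound mix in each cell type (adjusted p = 0.00247 and 0.00497).

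The creatine carrier Slc6a8 rose with the Compound mix, from 3.47, 3.59 and 3.68 to 4.98, 4.31 and 4.92 in AML cells and from 3.56, 3.63 and 3.65 to 6.11 and 5.65 in LSK cells. The rises were 1.15 ± 0.17 and 2.26 ± 0.18 (adjusted p = 3.81e-05 and 3.27e-08), without overlap, and the AML rise was smaller by 1.11 (adjusted p = 0.00405). The neutral amino acid carrier Slc6a15 (B0AT2) lay at or near the filter level on all 9 AML arrays, at 2.35 or less, and exceeded it on 1 of them. In LSK cells it read 3.86, 4.11 and 3.76 in Control, 4.71, 5.02 and 4.58 in Dox, and 3.08 and 3.16 in Compound. It rose by 0.86 with Dox and fell by 0.79 with the Compound mix (adjusted p = 2.35e-04 and 6.13e-04). AML Control lay 1.68 below LSK Control, or 1.56 with dim values raised to the filter level. This gap is a description, since Slc6a15 entered the fit mainly through LSK arrays.

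The untreated cells differed modestly in the main uptake carriers. AML Control exceeded LSK Control by 0.61 for Slc7a1, 0.57 for Slc7a11, 0.56 for Slc1a4, 0.44 for Slc38a2, 0.33 for Slc3a2 and 0.31 for Slc7a5 (adjusted p between 1.66e-04 and 0.0150). The call of Slc7a5 was lost without AML Control replicate 2 or LSK Control replicate 1. Slc1a5 and Slc38a1 differed by 0.25 and 0.05 (adjusted p = 0.117 and 0.743).

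**Figure D5:**
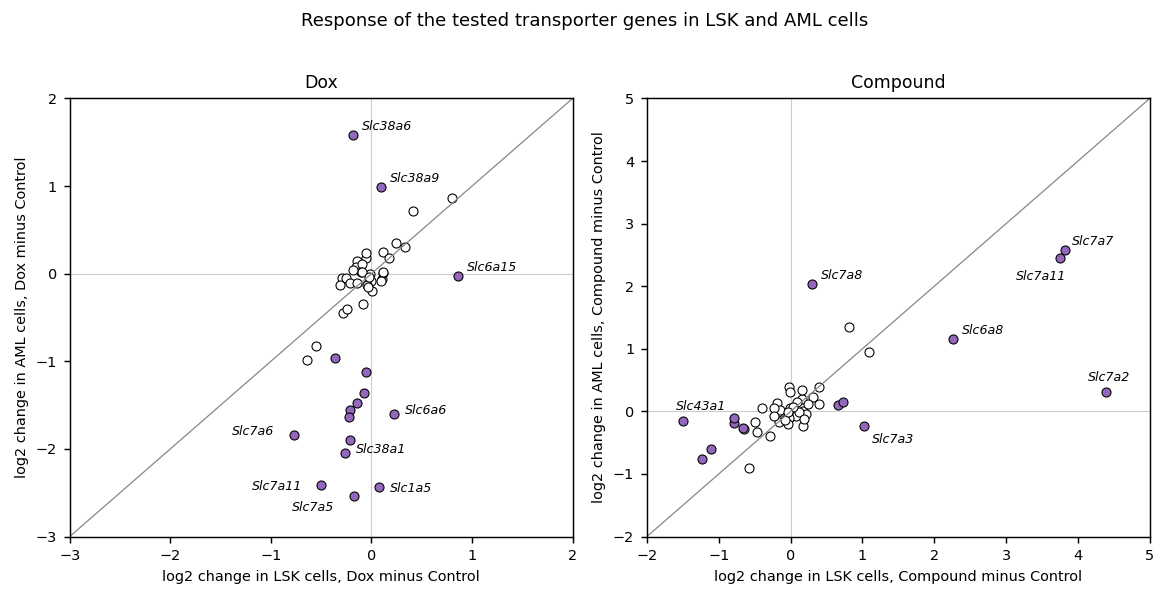
Log2 change against Control in LSK cells (x axis) and AML cells (y axis) for the 51 tested members, with Dox on the left and the Compound mix on the right. Purple points are the 16 and 14 members whose response differed between the cell types at an adjusted p under 0.05, and the line marks equal responses. With Dox the purple points spread vertically near 0 on the x axis, and with the Compound mix Slc7a2 lies far to the right.

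The rest of the amino acid network was read from 4 gene lists. The first held 27 genes of the ATF4 amino acid response, 25 of them tested. In AML Dox 20 were lower and 2 higher, with a median of -1.05, against -0.01 over all genes. Of all genes tested 24.7% were lower and 22.3% higher there. The serine and glycine pathway enzymes Shmt2 and Psat1 fell by 2.88 and 2.87 and the cystathionine cleaving enzyme Cth by 2.83 (adjusted p = 3.95e-14, 1.70e-13 and 7.78e-13). Atf4 itself fell from 8.67 to 7.05, while Nupr1 and Cebpg rose.

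In LSK Dox 6 of the 25 were lower and 4 higher, where 9.43% of all genes were lower and 8.87% higher. The Dox response was more negative in AML cells for 19 and more positive for 0, against 20.7% and 18% of all genes. AML Control exceeded LSK Control for 18 of the 25 and was lower for 1, against 14.7% and 13.6% of all genes. With the Compound mix 14 were lower and 3 higher in AML cells, and 11 lower and 6 higher in LSK cells, where Atf3 rose by 2.95. The shares of all genes were 18.5% lower and 12.3% higher in AML cells, and 19.3% and 13.9% in LSK cells. In the AML Compound arrays Slc7a11 was thus higher and Shmt2 and Psat1 lower, by 1.05 and 1.01.

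The other lists did not lean one way so far, and their counts stand beside 24.7% of all genes lower and 22.3% higher in AML Dox. Of 27 genes that sense amino acids for mTORC1, 9 were lower and 7 higher in AML Dox; Bmt2 (Samtor), a sensor of S-adenosylmethionine, rose by 3.32 and the leucine sensor Sesn2 fell by 2.13. Of 23 tested amino acid enzymes, 11 were lower and 3 higher in AML Dox. The polyamine enzyme Odc1 fell by 3.08 and the glutathione enzyme Gclc by 1.88, while glutamine synthetase, Glul, rose by 2.67. Of 19 tested transporters outside the 7 families, 6 were lower and 5 higher, and the serine carrier of mitochondria, Sfxn1, fell by 1.83. Slc15a3, a lysosomal histidine and peptide carrier, rose with the Compound mix by 3.73 in AML and 5.45 in LSK cells.

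Markers of cell types moved with the same treatments. The macrophage list (Adgre1, Csf1r, Cd68 and Mrc1) averaged 4.63 to 4.67 on the AML Control arrays, 3.77 to 3.91 on AML Dox and 6.91 to 7.15 on AML Compound. In LSK cells it averaged 5.40 to 5.53 in Control, 5.26 to 5.40 in Dox and 6.29 to 6.36 in Compound. Its genes did not move as one. With the Compound mix Adgre1 rose in AML cells from 5.87 to 9.43, Cd68 from 6.96 to 9.69, Csf1r from 3.70 to 6.49 and the dim Mrc1 from 2.05 to 2.58. In LSK cells Adgre1 rose from 4.45 to 8.69 and Cd68 from 8.59 to 9.17, while Csf1r fell from 5.81 to 5.35 and Mrc1 from 3.04 to 2.10 (limma, adjusted p = 0.0352 at most for these 8 changes).

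The megakaryocyte list, with Pf4, Ppbp and Itga2b matched, averaged 2.88 to 3.16 in AML Control and 5.90 to 6.16 in AML Compound. In LSK cells it averaged 3.63 to 3.95 in Control, 4.81 to 5.02 in Dox and 5.90 to 6.07 in Compound. In AML Compound the mean was carried mainly by Ppbp, from 2.73 to 10.46, with Pf4 going from 2.93 to 4.56 and Itga2b from 3.44 to 3.13. In LSK Compound Ppbp went from 2.80 to 6.99, Pf4 from 4.10 to 7.16 and Itga2b from 4.41 to 3.79. The mast cell and basophil list (Cpa3, Mcpt8, Fcer1a and Ms4a2) averaged 4.56 to 4.77 in LSK Control, 2.82 to 3.05 in LSK Dox and 3.93 to 3.94 in LSK Compound, so markers moved beside the LSK Dox changes of the transporters as well. In AML Dox Cd34 fell from 8.67 to 3.44 and Itgam rose from 6.18 to 9.13, beside the falls of Slc7a5, Slc3a2 and Slc1a5. Other AML markers went both ways. Mpo read 10.54 to 10.55 in AML Control and 6.81 to 7.11 in AML Dox, and Kit fell too. In the same groups Hoxa9 read 7.71 to 7.89 and 9.13 to 9.16, and Hoxa10 read 4.70 to 4.98 and 5.85 to 6.24. Meis1 read 8.63 to 8.74 and 9.24 to 9.40. The part of these shifts in the transporter changes was not tested, and in bulk samples fewer cells of a type and less RNA per cell cannot be told apart.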

How the data were processed

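RNA of 18 mouse samples was measured on 1-colour Affymetrix whole-transcript arrays. The deposited values are log2 expression values made by the authors with RMA, per the submitters' processing notes; no source used here gives the version or genome build. RMA gives arrays a like distribution, so a shift of all RNA would not show. The values were used without further scaling.

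Of 41345 probe sets, 23521 had 1 gene in the platform's probe table, 1814 had several and 16010 were not listed there; only those with 1 gene were named. Per gene the brightest probe set, by its mean over 17 arrays, was kept. A gene was tested if it exceeded the 40th percentile of an array's probe sets on at least 2 arrays. Groups follow the sample titles. LSK Compound replicate 1 was left out. The fit was limma 3.58.1 in R 4.3.3 (lmFit with a mean per group over 17 arrays, contrasts, eBayes), Benjamini-Hochberg adjusted over the 16912 genes in each of 8 comparisons and a threshold of 0.05. Standard errors are those of this fit, with 11 residual degrees of freedom. Arrays carry no read depth, and their number limits the precision. The limma step was tested on simulated data.

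The members, gene lists and tests were chosen with earlier results of these data known. Always given are Slc3a2, Slc7a5, Slc7a11, Slc1a5, Slc38a1, Slc38a2 and Slc7a1. The rule adds the 5 largest non-overlapping rises and falls past the threshold for each treatment and for the controls, the 3 largest each way for other comparisons, and from each list the genes of smallest p. Other genes named were chosen after their values were seen. Alternatives were all 18 arrays, the replicate number as a block, only the groups compared, 2 scalings, 3 filters, dim values raised to the filter level, the mean of all probe sets of a gene, each array left out in turn and, chosen after seeing the data, the other probe set of a gene.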

Additional observations from a re-analysis of the deposited data

Results flagged for a closer look

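Some members responded differently in AML and LSK cells, by the test of the difference itself (limma, AML change minus LSK change). With Dox, Slc38a6 differed by 1.77 and Slc38a9 by 0.90, more positive in AML cells. Slc1a5 differed by -2.50, Slc7a5 by -2.36 and Slc7a11 by -1.90, more negative in AML cells. The adjusted p values lay between 1.84e-10 and 8.46e-06.

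With the Compound mix, Slc7a8 differed by 1.73 (adjusted p = 1.85e-07), Slc43a1 by 1.35 (adjusted p = 2.92e-04) and Slc6a15 by 0.68. Slc7a2 differed by -4.08, Slc7a11 by -1.30 and Slc7a3 by -1.26 (adjusted p = 2.88e-11, 2.21e-04 and 0.00205). Slc6a15 read near the filter level in AML cells, where no fall could have been seen, so its value is a description and no test of the responses. Slc43a1 read 3.38 to 3.68 in AML Control, where a fall as large as in LSK cells would have passed below the filter level. With LSK Compound replicate 1 included, only 1 member passed the test of the Compound responses.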

How the results depend on the processing

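Including LSK Compound replicate 1 changed most. The members called fell to 12 in AML Dox, 3 in AML Compound, 2 in LSK Dox, 13 in LSK Compound, 5 between the controls, 5 for the Dox response, 1 for the Compound response and 11 for AML Dox against AML Compound, and the Slc7a11 difference in Compound response turned to 0.22 (adjusted p = 0.917). On the other probe set of Slc7a11, near background in the controls, the control difference turned to -0.020 and the Dox difference to 0.030. Leaving out single arrays gave 5 to 11 members in LSK Dox and 9 to 14 for the Compound response. Of the 72 called changes named by the rule above, 61 kept their call under every single-array omission. The other 11 lost it at least once, among them Slc7a5 between the controls. Changes named outside the rule were not followed. Same-numbered arrays deviated together at a correlation over 0.1 in 1 of 40 pairs (range -0.115 to 0.101). These values have no counterpart from differently numbered arrays, and whether the numbers pair the arrays was not tested. With the replicate block, 24, 13, 9, 23, 14, 16, 13 and 22 members were called in the 8 comparisons, and 1 of these 72, Slc38a7 in LSK Dox, lost its call (adjusted p = 0.0517). Over all planned settings but the one with 18 arrays, 2136 of 2182 values kept direction and side of the threshold, 44 lost the call, 2 gained it and 0 reversed. Changes from or to background are limited by signal: Slc7a11, Slc7a2, Slc6a15 and Slc1a3 can have changed by more than measured.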

Other observations

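Values of 3 genes on the opposite strand of members are given for completeness. Slc7a6os was lower in all 4 treatment comparisons (limma), by 0.93 in AML Dox, 0.34 in AML Compound, 0.37 in LSK Dox and 0.45 in LSK Compound, each in the direction of Slc7a6. Slc6a19os passed in none of them, and Slc36a1os was too dim to test. Among the members themselves, Slc1a4 and Slc7a6 were lower in each of the 4 treatment comparisons, Slc7a7 and Slc38a7 were higher in each, and Slc7a8 and Slc7a11 were lower with Dox and higher with the Compound mix in both cell types. Of these calls, those of Slc38a7 and Slc7a11 in LSK Dox and of Slc7a6 in AML Compound were lost when single arrays were left out. The omissions were not followed for Slc1a4, Slc7a6, Slc7a8 and Slc38a7 in AML Dox. Nor were they followed for Slc38a7 in AML Compound or for Slc7a6 and Slc7a8 in LSK Compound. Slc7a8 in LSK Compound had an adjusted p = 0.0497 (limma). The comparisons of a cell type share their controls. These patterns over 4 comparisons were picked after the values were seen, and the share of all genes with such patterns was not computed.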
